A study of Homo sapiens and Mus musculus with 16 samples.

Results

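The genes described here are 42 axon guidance ligands and receptors, read in 4 lists of accessible chromatin regions from pancreatic cancer cells. They were chosen by name, with earlier results of these data known. All 42 were found in the human annotation, among 20033 protein-coding genes, and all 42 orthologs in the mouse annotation, among 21938. A region was assigned to a gene when it overlapped the gene body or the 20 kb on either side. This gave 543 of the 118107 regions of the HPAF-II control list, 442 of the 97047 of the HPAF-II HNF4G-KO list, 359 of the 68074 of the KPC tumor list and 411 of the 80843 of the KPC liver mets list. No region was counted for more than 1 gene.

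HPAF-II is an established human pancreatic adenocarcinoma line. Its control cells, genotype WT, carry the CRISPR-Cas9 treatment only, and its HNF4G-KO cells have been edited in HNF4G, a nuclear receptor of the HNF4 family. The methods describe the knockout as a pool of clones with frameshift mutations, so the same pool stands behind all replicates. The KPC lines are mouse lines, labelled WT and untreated, from a pancreatic tumor of the KPC model and from the matched liver metastasis (mets). The 16 samples are 4 replicates of each of the 4 groups, all assayed by Omni-ATAC-seq, in which a transposase cuts open chromatin. Each group came as 1 list for its 4 replicates, with no value per replicate, so no difference below has a replicate error or a p-value. Intervals are 95% Wilson intervals, which cover counting error only. Because a frameshift need not alter accessibility, the regions do not check the knockout label.

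Axon guidance genes encode secreted or membrane-bound cues and the receptors that read them. Slits signal through Robo receptors, semaphorins through plexins with or without neuropilins, netrins through DCC and the UNC5 family, and ephrins through Eph receptor kinases. They were named for steering growing nerve fibers, but epithelia use the same proteins for cell sorting, adhesion and migration, and several are known to be altered in pancreatic cancer. An accessible region at such a gene marks open DNA. It does not measure the gene's RNA or protein.

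A region was called shared when it overlapped a region of the other list of its species by at least 1 bp, and control-only, KO-only, tumor-only or mets-only otherwise. The score that comes with each region has no stated scale, so each score was turned into a percentile within its own list. For shared regions the percentile change is the percentile in HNF4G-KO minus control, or mets minus tumor, ranked among the shared regions of each list. A change of at least 20 points was called large.

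The highest-scoring region without a partner in each list lay at SEMA6D (control), PLXNB1 (HNF4G-KO), Sema6d (tumor) and Epha4 (mets), and its 200 central bases are shown to give the DNA behind the calls. All coordinates are hg38 for human and mm10 for mouse, and all letters are of the plus strand. Capitals mark exact matches to 6 motifs searched on both strands, those of the HNF4, FOXA, AP-1, GATA, TEAD and RUNX factors.
SEMA6D, control-only, chr15:47444002-47444201, intron, score percentile 85.8: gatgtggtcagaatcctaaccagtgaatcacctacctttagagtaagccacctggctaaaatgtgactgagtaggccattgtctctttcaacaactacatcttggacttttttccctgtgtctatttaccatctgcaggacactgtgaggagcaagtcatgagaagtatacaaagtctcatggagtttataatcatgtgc
PLXNB1, KO-only, chr3:48436116-48436315, upstream of the gene, score percentile 45.9: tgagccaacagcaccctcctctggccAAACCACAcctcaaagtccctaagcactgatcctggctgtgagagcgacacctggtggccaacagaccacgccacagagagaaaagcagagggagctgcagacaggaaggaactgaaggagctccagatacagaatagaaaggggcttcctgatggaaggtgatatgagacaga
Sema6d (SEMA6D), tumor-only, chr2:124175213-124175412, intron, score percentile 38.1: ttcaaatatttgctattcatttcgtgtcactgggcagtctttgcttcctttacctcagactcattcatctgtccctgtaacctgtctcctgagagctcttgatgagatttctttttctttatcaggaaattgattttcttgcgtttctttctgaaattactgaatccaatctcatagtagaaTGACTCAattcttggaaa
Epha4 (EPHA4), mets-only, chr1:77445035-77445234, intron, score percentile 66.9: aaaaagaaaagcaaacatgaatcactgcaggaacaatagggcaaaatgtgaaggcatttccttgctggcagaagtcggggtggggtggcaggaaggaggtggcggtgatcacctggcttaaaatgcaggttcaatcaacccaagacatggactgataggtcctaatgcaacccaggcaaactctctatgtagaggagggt
The capitals in the PLXNB1 stretch are a RUNX match (TGTGGTTT, on the minus strand) and those in the Sema6d stretch an AP-1 match (TGACTCA). The other pair held no match to the 6 motifs within these bases.

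The HNF4 motif, searched as CAAAGTCCA, was of interest because HNF4G was the edited gene. Of the 145 control-only regions at the 42 genes, 0 held it, which allows a share of up to 2.07% by 3 counts, beside 1.43% of the 29475 control-only regions of the whole list. In the control list 8 of its 398 shared regions held it, or 2.01% (1.02 to 3.92), beside 1.65% of all 88632 shared regions. Of these 8 regions, 6 are shown, with 61 bases around the motif in capitals. The SLIT1 and SEMA3F matches lie in untranslated sequence and are given by value only.
SEMA3C, intron, chr7:80870225-80870285: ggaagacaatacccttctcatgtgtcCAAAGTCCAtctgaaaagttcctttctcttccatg
EFNA5, intron, chr5:107571397-107571457: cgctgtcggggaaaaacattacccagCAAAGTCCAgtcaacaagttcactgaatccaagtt
PLXNA2, intron, chr1:208201398-208201458: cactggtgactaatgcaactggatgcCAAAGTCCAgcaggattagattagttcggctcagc
EFNB2, intron and exon of a long noncoding RNA, chr13:106493521-106493581: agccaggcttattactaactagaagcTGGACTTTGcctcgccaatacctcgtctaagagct
SEMA3A, intron, chr7:84058863-84058923: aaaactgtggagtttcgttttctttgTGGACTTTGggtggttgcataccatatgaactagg
EPHA2, near an internal start site, chr1:16143766-16143826: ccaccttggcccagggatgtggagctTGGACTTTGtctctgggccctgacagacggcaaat
These regions did not all rank lower in HNF4G-KO. From control to HNF4G-KO the score percentile went from 98.2 to 92.8 at SEMA3C, from 95.3 to 93.7 at EFNA5 and from 92.1 to 87.7 at PLXNA2. It went from 81.2 to 44.9 at SEMA3A, from 83.3 to 90.5 at EFNB2 and from 63.2 to 80.5 at EPHA2. At SLIT1 it was 65.2 and 65.6, and at SEMA3F 15.5 and 1.15. Among shared regions, 5 of the 8 ranked lower in HNF4G-KO and 3 higher, with changes from -34.0 to 27.8 points. Of all 1464 shared regions with the motif 58.9% ranked lower, beside 46.6% of all 88632 shared regions.

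The PLXNA2 element has a counterpart in the mouse, which was noticed after its values were seen. In both species it sits in an intron of this plexin receptor gene, 43.0 kb from the gene start in human and 42.5 kb in mouse.
Plxna2 (PLXNA2), KPC tumor and mets, chr1:194660550-194660610: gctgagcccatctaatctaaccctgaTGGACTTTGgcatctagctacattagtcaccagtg
After the mouse stretch is reverse complemented, 54 of the 61 bases are identical to the human PLXNA2 stretch (88.5%). This region scored high in every list, at percentile 92.1 in control, 87.7 in HNF4G-KO, 92.6 in tumor and 97.1 in mets.

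The FOXA motif, searched as TGTTTAC, was read in the mets-only regions for the same kind of reason, FOXA1 being the other factor named in the title of the series. It was present in 5 of 81 mets-only regions at the 42 genes, or 6.17% (2.67 to 13.6), beside 7.59% of all 16355 mets-only regions. Of these regions, 2 are shown, again with 61 bases around the motif.
Plxna2 (PLXNA2), intron, chr1:194683216-194683276: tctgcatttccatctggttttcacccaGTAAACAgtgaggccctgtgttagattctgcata
Robo3 (ROBO3), downstream, chr9:37406474-37406534: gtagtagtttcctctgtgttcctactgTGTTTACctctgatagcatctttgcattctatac
The remaining motifs were read beside their shares over the whole lists. AP-1 was in 23.4% of control-only regions at the members and 23.5% of all control-only regions, and in 37.4% and 34.0% of shared control regions. RUNX was in 9 of 81 mets-only member regions, or 11.1% (5.96 to 19.8), beside 6.85% of all mets-only regions. The GATA letters AGATAAG were in 6 control-only and 4 mets-only member regions, or 4.14% and 4.94%, beside 4.01% and 5.26% over all. The TEAD letters, ACATTCCA, were in 4 and 2 of those regions, or 2.76% and 2.47%, beside 2.60% and 3.52% over all.

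Most members had an accessible promoter, meaning a region within 1 kb of an annotated start site. The count was 36 of 42 in control, 36 in HNF4G-KO, 32 in tumor and 35 in mets. Over all protein-coding genes the shares were 74.8% in control, 72.8% in HNF4G-KO, 58.0% in tumor and 59.1% in mets, beside 85.7%, 85.7%, 76.2% and 83.3% of the members. The members' intervals were 72.2% to 93.3% in the HPAF-II lists, which take in the shares of all genes, and 61.5% to 86.5% in tumor and 69.4% to 91.7% in mets, which lie above them. Among regions in the upper 50% of their list this turned, with 17 of 42 members in tumor beside 46.4% of all genes and 20 of 42 in mets beside 48.3%. The members were chosen with earlier results of these data known, and the part of that choice in these shares was not tested. The members' promoter regions ranked lower than those of all genes. The median percentile of each gene's strongest promoter region was 70.4 for members and 85.0 for all genes with one in control, 74.3 and 84.7 in HNF4G-KO, 51.7 and 74.3 in tumor, and 54.2 and 76.9 in mets.

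**Figure D1:**
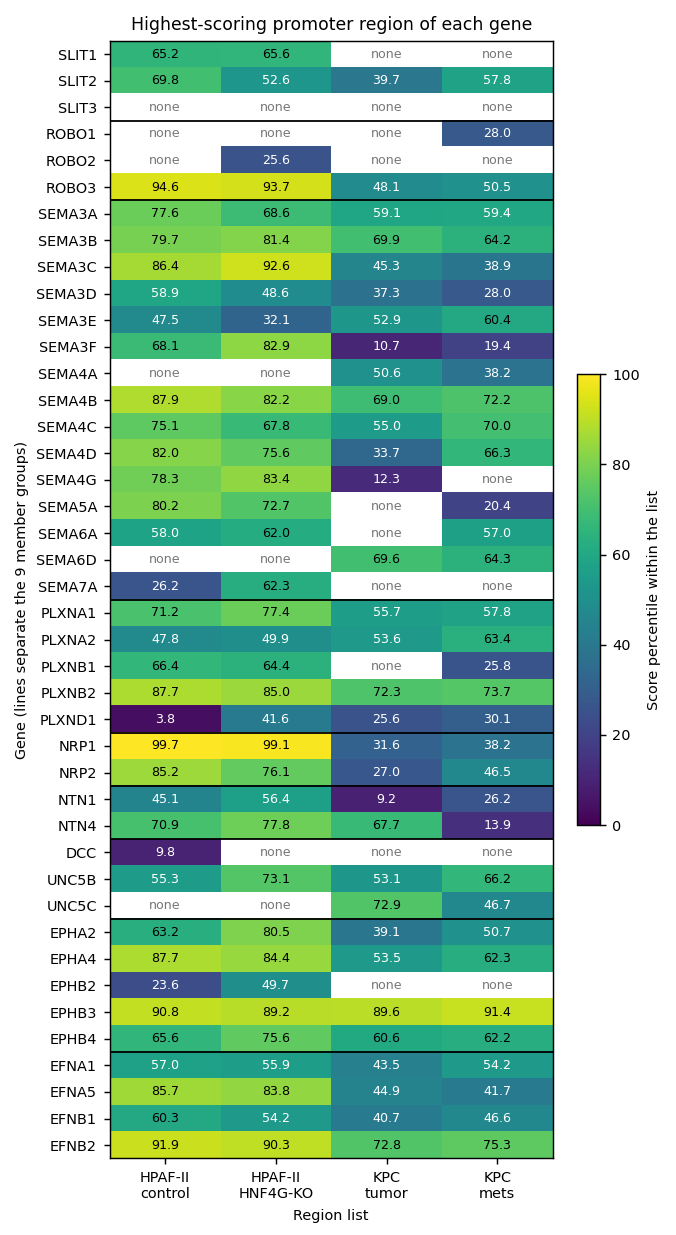
Score percentile, within each list, of the highest-scoring region within 1 kb of a start site of each of the 42 genes (rows, in 9 groups) in the 4 lists (columns); "none" marks no such region. EPHB3 stood between 89.2 and 91.4 in every list, NRP1 at 99.7 and 99.1 in HPAF-II but 31.6 and 38.2 in KPC, and SLIT3 had none.

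A promoter region was present in all 4 lists at 28 members. SLIT3 had none in any list. SEMA4A, SEMA6D and UNC5C had one in the mouse lists only, and SLIT1, SEMA7A and EPHB2 in the human lists only. Within HPAF-II, DCC had a promoter region in control only (percentile 9.77), where 2.69% of all genes did, and ROBO2 in HNF4G-KO only, where 0.634% did. The ROBO2 region was itself shared. Its edge lay 955 bp from a start site in HNF4G-KO and 1106 bp in control, and it ranked at 25.6 and 64.8, so the promoter call turned on the edge of a region that ranked lower in HNF4G-KO. Within KPC, SEMA4G had a promoter region in tumor only (percentile 12.3), where 1.06% of all genes did. In mets only there were 4, at ROBO1, SEMA5A, SEMA6A and PLXNB1, where 2.19% of all genes did, and the interval for 4 of 42 was 3.77% to 22.1%.

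Turning to all regions at the 42 genes, 145 of 543 control regions were control-only, or 26.7% (23.2 to 30.6). This was close to the 25.0% over all control regions and the 23.0% over those within 20 kb of any protein-coding gene. In the other direction 32 of 442 HNF4G-KO regions were KO-only, or 7.24% (5.17 to 10.0), beside 6.76% over all and 6.46% near genes. In KPC, 40 of 359 tumor regions were tumor-only, or 11.1% (8.29 to 14.8), beside 8.51% and 8.33%. Of mets regions, 81 of 411 were mets-only, or 19.7% (16.2 to 23.8), beside 20.2% over all and 11234 of 62417 near genes. All 4 shares for the members were thus near the background of their own list.

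The regions present in 1 list were weak and narrow. Their median score percentile was 16.9 in control, 15.8 in HNF4G-KO, 12.8 in tumor and 18.5 in mets, and their median width was 268, 256, 255 and 284 bp against 447 to 551 bp for shared regions at the same genes. Among regions in the upper 50% of their list, 7 of 259 control regions were control-only (2.70%, 1.86% over all) and 7 of 172 mets regions mets-only (4.07%, 4.17% over all). Of 213 HNF4G-KO and 148 tumor regions 0 lacked a partner, beside 0.0556% and 0.503% over all. The longer list of each pair also had the larger share without a partner. When both lists were cut to equal numbers of top regions, the shares at the members became 15.4% control-only, 14.9% KO-only, 19.7% tumor-only and 14.0% mets-only, beside 13.7%, 11.7%, 14.5% and 13.0% over all regions, so the order of tumor-only and mets-only turned.

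**Figure D2:**
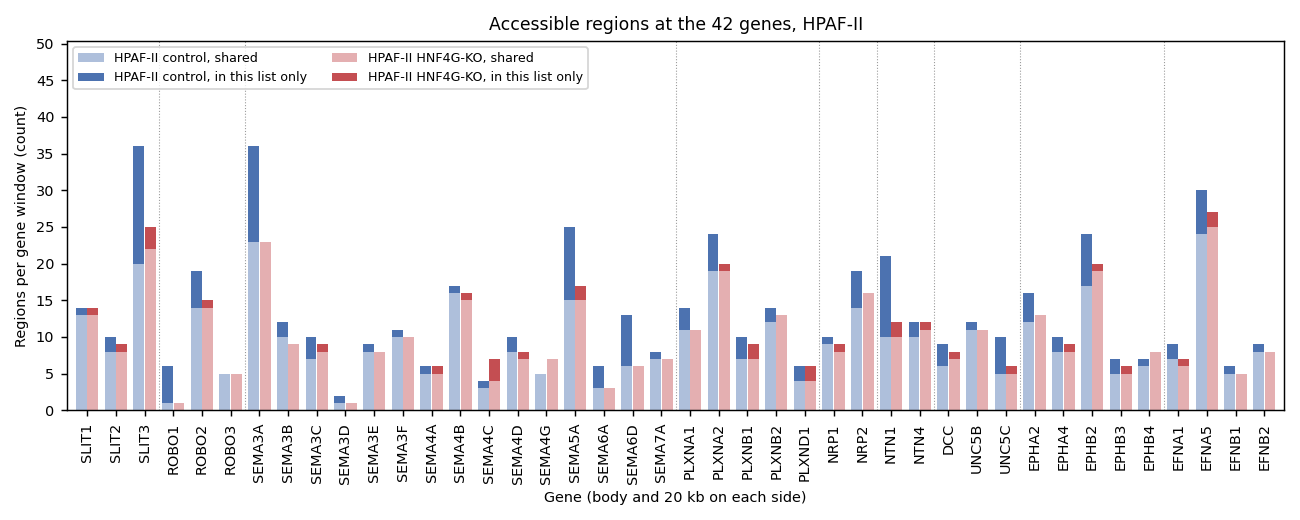
Number of regions (vertical axis) in the window of each of the 42 genes (horizontal axis) in HPAF-II control (blue) and HNF4G-KO (red); pale bars are shared regions and dark bars those in that list only. SLIT3, SEMA3A and EFNA5 held the most regions, and SLIT3, SEMA3A and NTN1 the most control-only ones.

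Ranking among shared regions holds the change over all of them near 0, so the members are read against that. In HPAF-II the median change over 398 shared regions at the members was 0.90 points (-0.13 to 2.21), beside 0.68 over all shared regions, with quartiles of -7.19 and 10.8 beside -6.07 and 7.98. In KPC it was 1.13 points over 319 regions (-0.67 to 2.59), beside 0.99. These intervals are binomial intervals of the median and treat regions as independent. A large rise was seen at 44 member regions in HPAF-II, or 11.1% (8.34 to 14.5), where 7.18% of all shared regions rose as much. A large fall was seen at 28, or 7.04% (4.91 to 9.98), where 6.12% fell as much. In KPC, 26 rose (8.15%, background 8.64%) and 22 fell (6.90%, background 7.44%). By any amount, 45.7% of member regions ranked lower in HNF4G-KO, beside 46.6% of all shared regions. In mets the shares were 45.5% and 45.4%. Shared promoter regions of the members had a median change of 6.03 points over 69 regions in HPAF-II and 1.78 over 48 in KPC. The change over the shared promoter regions of all genes was not computed, so these values have no matching background.

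Slits are secreted ligands and Robo receptors bind them. SLIT3 had the most regions without a partner in HPAF-II. It held 36 regions in control, 16 of them control-only, and 25 in HNF4G-KO, 3 of them KO-only, and with lists of equal size 6 of 22 control regions were control-only. In the 1 Mb on either side of the gene 33.6% of control regions were control-only, above the 25.0% of the whole list. Its 20 shared regions had a median change of -5.62 points (-9.17 to 2.71), and 14 of them ranked lower. In KPC there was no region at Slit3 in either list. SLIT1 had 14 regions in each HPAF-II list and 17 and 18 in tumor and mets. One-list regions at SLIT1 numbered 1 and 1 in HPAF-II, 3 in tumor and 2 in mets, the tumor count being among the 5 highest. SLIT2 had 10 and 9 regions in HPAF-II and 2 and 1 in KPC.

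ROBO2 had the lowest median change in HPAF-II. The gene, at chr3:75906695-77649964 on the plus strand, held 19 regions in control and 15 in HNF4G-KO. Of its 14 shared regions 13 ranked lower in HNF4G-KO, 6 of them by at least 20 points, and the median was -13.6 points (-34.9 to -2.74). The region 156.7 kb into the gene went from percentile 73.4 to 33.2, that at 227.0 kb from 53.8 to 3.05, and that at 563.8 kb from 67.0 to 25.6. The shared regions in the 1 Mb around ROBO2 did not follow, with a median of 1.76 points over 21 regions. All 14 shared regions were intronic in the control list.

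ROBO1, the neighbor of ROBO2 on the same chromosome, held 6 regions in control, of which 5 were control-only, and 1 in HNF4G-KO. In the 1 Mb around it 11 of 22 control regions were control-only. In KPC the numbers ran the other way, with 1 region at Robo1 in tumor and 6 in mets, all 6 mets-only. The pair at its internal start site ranked at percentiles 28.0 and 8.79. Robo2 had 0 regions in tumor and 3 in mets, at percentiles 38.2, 38.2 and 8.79. In the 1 Mb around Robo1 6 of 9 mets regions were mets-only (66.7%), and around Robo2 10 of 13 (76.9%). The genes lie within 1 Mb of each other, so these surroundings overlap and are not separate observations. The part of the surroundings in these values was not tested. ROBO3 had 5 regions in each HPAF-II list, all shared, and its promoter stood at 94.6 and 93.7.

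Semaphorins are the largest family here, with 15 genes. Class 3 members are secreted and the others are tethered to the membrane. In HPAF-II, 47 of their 174 control regions were control-only (27.0%, 25.0% over all) and 9 of 137 KO-only (6.57%, 6.76% over all). In KPC, 18 of 138 were tumor-only, or 13.0% (8.41 to 19.7), beside 8.51% over all. Of 163 mets regions 40 were mets-only, or 24.5% (18.6 to 31.7), beside 20.2% over all. Both intervals take in the share over all. Of the 40 mets-only regions, 11 lay at SEMA5A, 6 at SEMA6A and 5 at SEMA3D.

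SEMA6D, a membrane-bound ligand of plexin A receptors, was the only member whose median change was at or below -10 points in both pairs. In HPAF-II there were 13 regions in control and 6 in HNF4G-KO, and 7 of the 13 had no partner, or 4 of 10 with lists of equal size. The unmatched regions included the one printed above at percentile 85.8, the highest of all 145 control-only regions. All 6 shared regions ranked lower in HNF4G-KO, with a median of -12.1 points (-48.3 to -7.20). The region 287.7 kb from the gene start went from percentile 74.2 to 21.4, that at 282.5 kb from 83.7 to 59.9 and that at 12.0 kb from 74.4 to 54.9. Every HPAF-II region was intronic, and no promoter region was present in either list. In the 1 Mb around SEMA6D the share of control-only regions was 38.9% and the median change was -3.81 points over 11 shared regions.

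In KPC, where Sema6d (SEMA6D, chr2:124089969-124667770) has an accessible promoter, 14 of 15 shared regions ranked lower in mets, 5 of them by at least 20 points. The median was -10.3 points (-22.7 to -6.93), while the shared regions in the 1 Mb around it had a median of -2.59 over 40. Ranked among shared regions, the largest single fall of any member region in KPC was here, -57.7 points at 322.5 kb from the gene start. In the whole list this region went from percentile 73.8 to 22.4. Its strongest region, at 219.8 kb, stood at 97.4 in tumor and 92.2 in mets. Of its 19 tumor regions 4 were tumor-only, and with lists of equal size this count was 9.

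**Figure D3:**
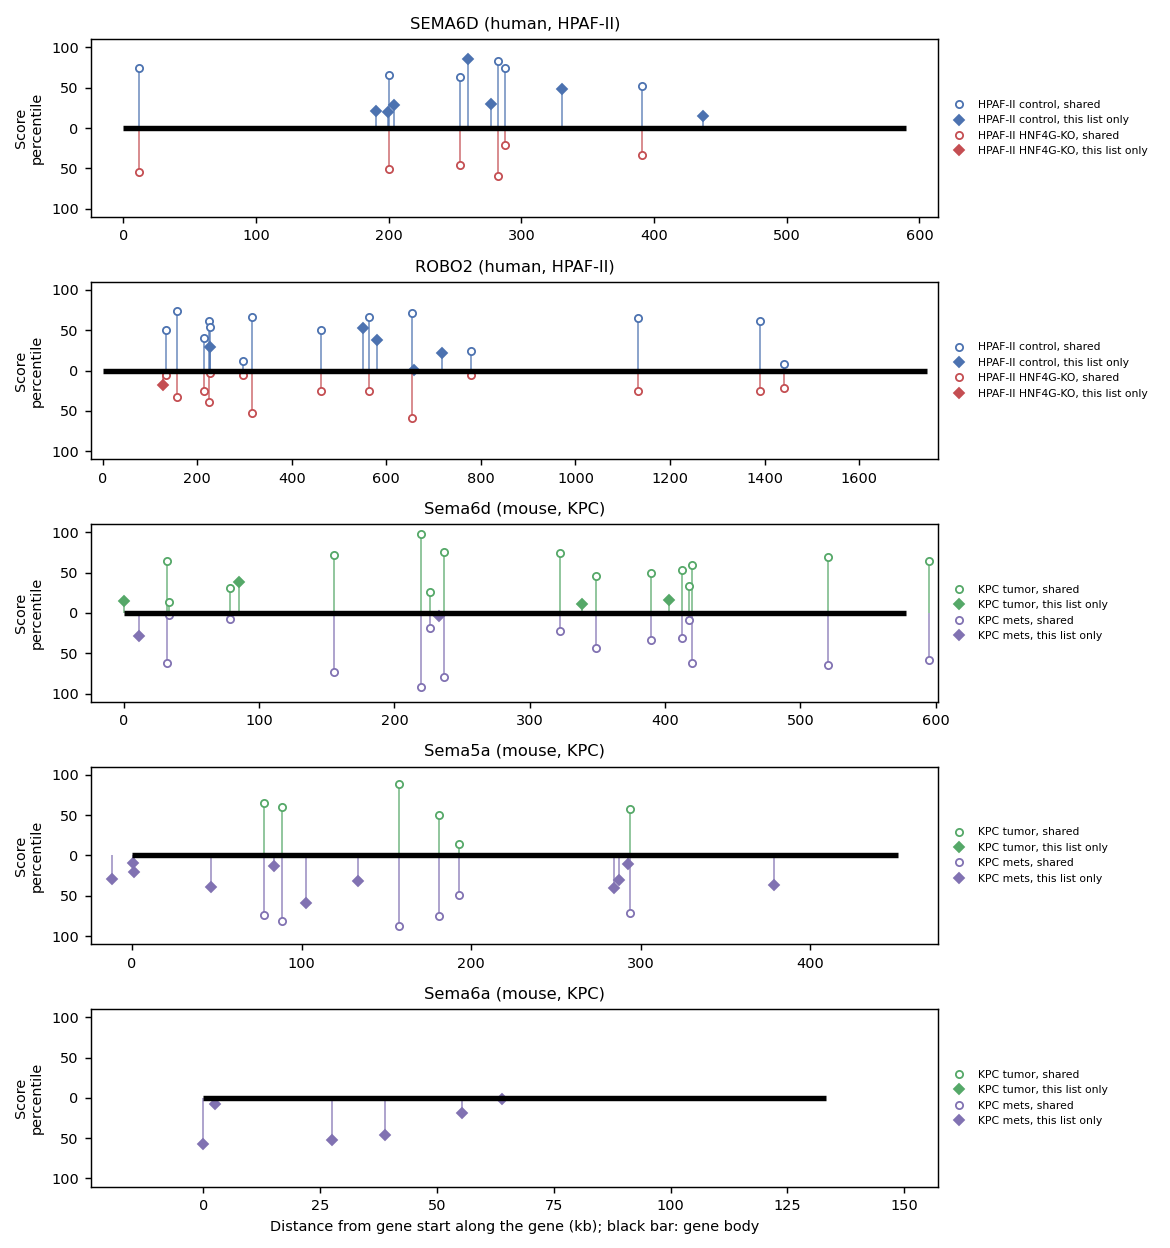
Regions at 5 loci by distance from the gene start (kb, horizontal axis) and score percentile (vertical axis, 0 at the center; control or tumor upward, HNF4G-KO or mets downward); open circles are shared, filled diamonds are in that list only, and the black bar is the gene body. SEMA6D and ROBO2 regions are lower downward than upward, and all 6 Sema6a regions point downward.

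SEMA5A differed in direction between the pairs. This gene encodes a membrane semaphorin that is also known to act on endothelial cells. In HPAF-II, 10 of its 25 control regions were control-only, or 5 of 18 with lists of equal size, beside 34.1% in the 1 Mb around it. Of its 15 shared regions 11 ranked lower, with a median of -6.82 points (-11.1 to 2.34). In KPC it held 6 regions in tumor and 17 in mets. All 6 tumor regions were shared, at percentiles 65.6, 60.1, 88.7, 50.1, 14.8 and 57.7, and in mets they stood at 73.3, 81.6, 87.0, 75.7, 48.5 and 71.0. So 5 of 6 ranked higher in mets, 3 by at least 20 points, with a median of 15.5 points (-3.85 to 27.8). The other 11 mets regions were mets-only, the strongest at 58.6 in an intron, and a promoter region at 20.4 was among them. In the 1 Mb around Sema5a 39.5% of mets regions were mets-only, against 64.7% at the gene. With lists of equal size 7 of 13 were mets-only.

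SEMA6A, a transmembrane ligand of plexin A receptors, had no region in tumor and 6 in mets. They ranked at percentiles 57.0, 52.4, 46.4, 18.5, 8.11 and 1.38, the first at the promoter and the others intronic. In the 1 Mb around Sema6a 15.6% of mets regions were mets-only, which was below the 20.2% of the whole list. With lists of equal size 3 regions were left in mets, all mets-only. In HPAF-II there were 6 regions at the gene in control, of which 3 had no partner, and its promoter stood at 58.0 and 62.0.

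SEMA4D, a membrane ligand of PLXNB1 and PLXNB2, held 6 regions in tumor and 9 in mets, 4 of them mets-only. A pair of these lay at internal start sites, at percentiles 66.3 and 35.9, and the first was the strongest promoter region of any member that was present in 1 list. Its central bases, with a RUNX match in capitals, were as follows.
Sema4d (SEMA4D), mets-only, chr13:51748245-51748444: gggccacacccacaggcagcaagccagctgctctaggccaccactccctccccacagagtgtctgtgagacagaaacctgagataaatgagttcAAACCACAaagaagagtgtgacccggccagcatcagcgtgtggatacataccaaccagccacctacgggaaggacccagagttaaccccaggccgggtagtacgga
The Sema4d start used by the whole gene was shared and stood at 33.7 in tumor and 44.2 in mets. In the 1 Mb around Sema4d 26.0% of mets regions were mets-only. In HPAF-II the median change at SEMA4D was 15.1 points over 8 regions, with an interval of -26.7 to 18.2 that includes 0.

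The secreted semaphorins differed among themselves. SEMA3A had 13 control-only regions of 36 in HPAF-II, or 5 of 24 with lists of equal size, and 0 KO-only of 23, and its 23 shared regions had a median change of -3.62 points. SEMA3F had a median of 15.5 points (-3.28 to 24.0) over 10 regions, 8 of which ranked higher in HNF4G-KO, and its promoter went from 68.1 to 82.9. SEMA3E held the largest fall of any member region in HPAF-II when ranked among shared regions, -53.3 points. This intronic region went from 72.4 to 13.0 in the whole list. SEMA3B and SEMA3C had medians of 4.76 and -0.37 points. SEMA3D had 2 control regions and 1 in HNF4G-KO, but 8 in tumor and 12 in mets. Of those 12, 5 were mets-only, and its 7 shared regions had a median of 8.86 points (-14.0 to 18.7). With lists of equal size its mets-only count was 1.

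The remaining membrane semaphorins were mostly shared. SEMA4C had 3 KO-only regions of 7, a count equalled by SLIT3 and passed by no member, at a gene with only 4 regions in control, and 1 of them was at its promoter at percentile 18.5. Its mouse ortholog had 4 shared regions in KPC with a median of 10.9 points and a range of -1.05 to 62.2. The highest of the 4 changes was at a region that went from 1.52 to 70.0. That mets region also partners a second tumor region, and the 2 regions that pair 1 to 1 had a median of 4.35 points. SEMA4G had 5 tumor-only regions of 12, the strongest at 20.4, and several lay at the promoter of a neighboring gene. SEMA4A had 3 tumor-only regions of 14, and all 3 were promoter regions at or below percentile 16.1. SEMA4B had 17 and 16 regions in HPAF-II and 11 and 13 in KPC, with 1 or fewer unmatched in each list. SEMA7A had a promoter that went from 26.2 in control to 62.3 in HNF4G-KO, while an intronic region went from 51.2 to 10.2.

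Plexins are the main semaphorin receptors, and neuropilins are their co-receptors for class 3 ligands. PLXND1, the receptor for SEMA3E, had the highest median change in HPAF-II. All 4 of its shared regions ranked higher in HNF4G-KO, with a median of 34.3 points (3.93 to 37.4), which was 7.24 over 10 regions with 50 kb on each side. The promoter, at 3.80 and 0.68 in 2 control regions, was a wider region at 41.6 in HNF4G-KO, and the region 57.1 kb from the start went from 23.4 to 46.1. The region 20.2 kb upstream was strong in both lists, at 91.6 and 93.2. The 2 promoter values share 1 HNF4G-KO region, so these are not 4 separate gains. Only 1 of the 4 regions pairs 1 to 1, and it changed by 31.9 points. PLXND1 also had 2 KO-only regions of 6. In KPC its 11 shared regions had a median of -2.77 points (-11.4 to 19.8).

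At the other plexins the ranks moved less. Median changes in HPAF-II were 4.77 points at PLXNA1, -0.51 at PLXNA2, 4.15 at PLXNB1 and 5.07 at PLXNB2. Ranked in the whole list they were -3.65, -4.38, -1.99 and -3.33 points, beside -4.65 over all shared regions. PLXNB1 had 2 KO-only regions of 9, including the one printed above. In KPC, PLXNA2 had the most mets regions of all members, 20, of which 3 were mets-only, and 11 of its 16 shared regions ranked higher in mets, with a median of 5.09 points (-1.91 to 9.04). PLXNB2 held a promoter region that went from 0.020 in tumor to 66.2 in mets. Of its 13 shared regions in KPC, though, 8 ranked lower in mets and 5 higher, with a median of -2.26 points. Plxnb1 had a promoter region in mets only, at 25.8.

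NRP1, which also binds VEGF, had the strongest promoter of all members in HPAF-II, at 99.7 in control and 99.1 in HNF4G-KO, but only 31.6 and 38.2 in KPC. A second NRP1 promoter region went from 16.4 in control to 70.9 in HNF4G-KO. NRP1 had 3 promoter regions in control and 2 in HNF4G-KO, and not all of its 9 shared control regions pair 1 to 1. In KPC a pair of NRP1 regions rose from 24.8 to 75.8 and from 31.3 to 81.6, and another fell from 67.8 to 33.3, so the median over its 8 shared regions was 1.90 points. NRP2 held the largest rise of any member region in KPC when ranked among shared regions, 66.7 points at an intronic region 9.90 kb from the start. In the whole list this region went from 24.5 to 88.9. Its 14 shared regions had medians of -0.32 points in HPAF-II and 4.42 in KPC.

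Netrins are laminin-related ligands, and DCC and the UNC5 proteins are their receptors. NTN1 had 11 control-only regions of 21 in HPAF-II (52.4%), in surroundings where 18.8% of control regions were control-only. These 11 were weak, between percentiles 0.48 and 32.1, and with lists of equal size 2 of 11 regions were control-only. Its promoter went from 45.1 to 56.4. In KPC, NTN1 held 7 and 6 regions and its promoter stood at 9.17 in tumor and 26.2 in mets. NTN4 had 12 regions in each HPAF-II list and medians of 0.48 and -1.59 points in HPAF-II and KPC.

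DCC, the attractive netrin receptor, held 9 control and 8 HNF4G-KO regions over a gene body of 1196 kb. Of its 6 shared regions 5 ranked lower in HNF4G-KO, with a median of -9.55 points (-30.1 to 3.61), and the region 296.5 kb from the start went from 50.1 to 8.54. No region lay at Dcc in either KPC list. UNC5B, a receptor also known in endothelium, ranked higher in mets at nearly all regions. Of its 12 shared regions 11 ranked higher in mets, 3 by at least 20 points, and the median was 9.70 points (4.32 to 21.3), beside 1.05 points over 94 shared regions in the 1 Mb around it. Its promoter went from 53.1 in tumor to 66.2 in mets and from 55.3 in control to 73.1 in HNF4G-KO. UNC5C had 10 and 6 regions in HPAF-II, and its promoter in KPC fell from 72.9 in tumor to 46.7 in mets.

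Eph receptors are tyrosine kinases that bind ephrins on neighboring cells. In HPAF-II their 48 shared regions had a median change of 7.15 points, with quartiles of -0.12 and 18.1. The median over all shared regions was 0.68. Of the 48, 10 rose by at least 20 points, where 7.18% of all shared regions did. A fall as large was seen at 2, where 6.12% of all shared regions fell as much. At EPHA4, 7 of 8 shared regions ranked higher in HNF4G-KO, 4 by at least 20 points, with a median of 19.97 points (-0.31 to 64.1), which was 10.6 over 7 regions in the gene body alone. Ranked among shared regions, the largest rise of any member region in HPAF-II was at EPHA4, 64.1 points past the end of the gene and 163.5 kb from its start. In the whole list this region went from percentile 24.4 to 76.8, while the promoter stood at 87.7 and 84.4. At EPHA2, 11 of 12 ranked higher, with a median of 10.5 points. Of its 4 promoter regions in control, 3 went from 63.2 to 80.5, from 37.4 to 45.9 and from 19.1 to 34.3. EPHB4 had a median of 15.0 points (-17.7 to 22.5) over 6 regions. The strongest EPHB2 promoter region stood at 23.6 in control and, at another start site, at 49.7 in HNF4G-KO, and the median of EPHB2 over 17 regions was 3.56 points. EPHB3 had promoter percentiles of 90.8 and 89.2. The shared regions in the 1 Mb around EPHA4, EPHA2 and EPHB4 had medians of -1.10, 3.00 and 2.86 points. Ranked in the whole list, the gene medians were 14.7 points at EPHA4, 1.42 at EPHA2 and 3.25 at EPHB4. They were -2.72 at EPHB2 and -8.18 at EPHB3, beside -4.65 over all shared regions.

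In KPC the Eph receptors were almost entirely shared. None of their 44 tumor regions was tumor-only (0 to 8.03%), beside 8.51% of the whole list. Of 49 mets regions 4 were mets-only, or 8.16% (3.22 to 19.2), beside 20.2% of the whole list. Their median change was 1.77 points, and EPHA4 had the largest at 4.72 over 10 regions.

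Ephrins are the ligands of these receptors. In KPC their median change was -4.48 points, with quartiles of -9.14 and 3.99, and 3 of the 4 genes were among the 5 lowest. EFNA1 had a median of -6.59 points (-17.0 to 4.62), EFNA5 of -5.10 (-19.5 to 15.9) and EFNB2 of -4.16 (-16.8 to 4.64), and each interval includes 0. EFNA1 turned to 0.071 points when only its gene body was used and to 1.62 with 50 kb on each side, and ranking in the whole list turned EFNA5 to 0.20 and EFNB2 to 1.298. EFNA5 held 5 tumor-only regions of 19, the strongest at percentile 33.3 and 5.38 kb from the gene start, in surroundings where 18.6% of tumor regions were tumor-only. EFNB1 had 6 regions in each KPC list. In HPAF-II all 8 shared EFNB2 regions ranked higher among shared regions in HNF4G-KO, by 0.35 to 19.8 points. Ranked in the whole list, the EFNB2 median was -1.01 points. EFNA1, EFNA5 and EFNB1 had medians of -2.12, -0.13 and 3.04 points.

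**Figure D4:**
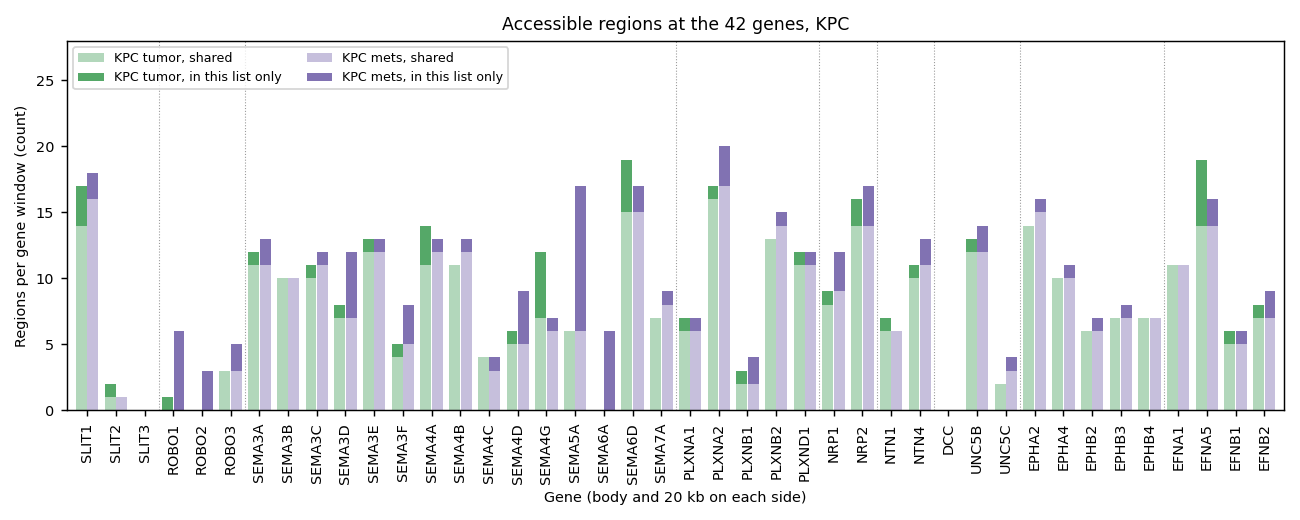
Number of regions (vertical axis) in the window of each of the 42 genes (horizontal axis) in KPC tumor (green) and mets (purple); pale bars are shared regions and dark bars those in that list only. SEMA5A had 6 tumor and 17 mets regions, SEMA6A 0 and 6, and SLIT3 and DCC none.

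Set side by side, 33 members had at least 3 shared regions in both pairs. The median changes of 4 were below 0 in both and those of 11 above 0 in both, while 8 were above 0 in HPAF-II only and 10 in KPC only. SEMA6D was the only one at or below -10 in both, and 0 were at or above 10 in both. Of 321 ligand regions 27.7% were control-only and of 222 receptor regions 25.2%, and the KO-only shares were 7.81% and 6.45%. In KPC 31 of 219 ligand regions were tumor-only, or 14.2% (10.2 to 19.4), and 9 of 140 receptor regions, or 6.43% (3.42 to 11.8), beside 8.51% over all. The mets-only shares were 20.2% of 243 and 19.0% of 168. These differences between ligands and receptors were not tested.

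Other genes of the pathway were counted in the same way. Of 33 other ligands and receptors, 23 had a promoter region in control, 22 in HNF4G-KO, 14 in tumor and 15 in mets, fewer in proportion than the 42 members in each list. Both sets of genes were chosen with earlier results of these data known, and the part of that choice in this difference was not tested. Of the regions at the 33 genes 25.1% were control-only, 7.07% KO-only, 11.8% tumor-only and 25.4% mets-only. Of 22 intracellular mediators, such as RAC1, RHOA and the srGAP proteins, all 22 had a promoter region in control, HNF4G-KO and mets and 20 in tumor, and 13.2% of their mets regions were mets-only. Marker genes were read as a check of the cells. All 5 epithelial markers had a promoter region in all 4 lists, and neither hepatocyte marker had one in any list, mets included. A promoter region was also present at both neuronal markers in all 4 lists, at 1 of 3 leukocyte and 1 of 2 fibroblast markers in the HPAF-II lists, and at 1 of 2 endothelial markers in the KPC lists.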

How the data were processed

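Regions were read from 4 deposited BED lists, 1 for each group of 4 replicates. The score of each region, a whole number with no stated scale, was set by the authors. Per the labels, Bowtie2 2.2.6, MACS2 2.1.1.20160309 and DiffBind were used and the builds were hg38 and mm10. For the ATAC-seq lists the peak threshold, read shift, pooling and read depth are not given in the sources used here, and the settings stated for ChIP-seq were not assumed to apply, so depth is unknown. All regions lay inside the chromosomes of these builds. Genes and start sites came from GENCODE 44 (human) and vM21 (mouse), and sequence from hg38 and GRCm38.

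Each score was ranked within its list (pandas 2.3.3, numpy 2.4.6), overlap was at least 1 bp, and a shared region was paired with its longest overlap. Wilson intervals were from statsmodels 0.14.6. The steps were tested on simulated lists. With 1 list per group there is no replicate test. Alternatives were other overlaps, windows, rankings, list lengths and motif mismatches. Members and gene lists were chosen with earlier results of these data known. Members named with values were those with a promoter in 1 list, the 5 with the most regions in 1 list, the 5 lowest and 5 highest medians among members with at least 3 shared regions, and further members for completeness.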

Additional observations from a re-analysis of the deposited data

How the results depend on the processing

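No paired analysis was possible because each group has 1 list for its 4 replicates, and leaving out a replicate was not possible for the same reason. Of 58 values for the 12 main results under the alternatives, 48 stayed within the limits set. These were the counting interval for shares, the interval of the median for changes, and a fixed ratio to the main count for promoter counts. With both lists of a pair cut to equal numbers of top regions, the shares became 15.4% control-only, 14.9% KO-only, 19.7% tumor-only and 14.0% mets-only. Over all regions they were 13.7%, 11.7%, 14.5% and 13.0%. Ranked in the whole list, the median change of shared member regions was -3.68 points in HPAF-II, where it turned, and 3.89 in KPC, beside -4.65 and 3.67 over all shared regions. With only the upper 50% of each list, 17 members had a promoter region in tumor and 20 in mets, beside 46.4% and 48.3% of all genes, so the excess over all genes turned. With 1 mismatch allowed, 6.90% of control-only member regions held the HNF4 motif and 55.6% of mets-only ones the FOXA motif, beside 11.8% and 63.5% of all such regions.

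Among single genes, 195 of 240 values stayed within such limits, 40 moved and 5 turned. For one-list counts the limit was a fixed ratio to the main count, not a measured spread, and for medians the interval of the median. EFNA1 in KPC turned to 0.071 points with the gene body only and to 1.62 with 50 kb on each side. Ranked in the whole list, EFNA5 turned to 0.20, EFNB2 to 1.30 and PLXND1 to 0.22 in KPC, where the median of all shared regions was 3.67. In HPAF-II the same ranking moved the medians down, to 5.13 at SEMA3F, 3.68 at SEMA4D, 3.25 at EPHB4 and -23.4 at ROBO2, with all shared regions at -4.65. The turned values are counted over the 5 lowest and 5 highest medians of each pair only. In HPAF-II this ranking also turned other members, among them EFNB2 (-1.01), PLXNA1 (-3.65), PLXNB1 (-1.99), PLXNB2 (-3.33), EPHB2 (-2.72) and EFNB1 (-6.25). With 50 kb on each side PLXND1 fell to 7.24 in HPAF-II. The cause was not tested. The score has no stated scale and no depth is known, so a region missing from a list may lie just under its threshold.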
